A study of Rattus norvegicus with 4 samples.

Results

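The fibroblast growth factor (FGF) genes measured here were 6 secreted ligands (Fgf1, Fgf2, Fgf7, Fgf9, Fgf10 and Fgf18) and the 4 receptors Fgfr1 to Fgfr4, in rat ovaries cultured with or without anti-Müllerian hormone (AMH). Members were every probe set annotated with exactly 1 of these 10 symbols, which gave 19 of the 31099 probe sets on the array. A probe set is a group of short probes whose intensities are summarised as 1 value. The clearest difference was in Fgfr1, whose tested probe sets were both lower with AMH. Of the ligands only Fgf9 had tested probe sets, and of these the dimmer was lower while the brighter was not called. Fgfr2 and Fgfr3 each had a probe set well above background, and none of their tested probe sets was called. Their other probe sets were dimmer, and most of those were too dim to test. None of the other 5 ligands had a probe set bright enough to test.

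The AMH group (Rattus norvegicus, no strain in the labels) consisted of whole ovaries removed from female pups at postnatal day 4 and cultured for 10 days with 50 ng/mL AMH. The control group was the same organ culture kept for 10 days with no hormone added. Both groups lay on floating filters in a medium that contained insulin, transferrin, albumin, Albumax and ascorbic acid, so that insulin was present throughout. Each RNA sample pooled about 10 ovaries, and 2 independent pools per group were each hybridised to 1 Affymetrix array, so that single ovaries cannot be followed. The series title gives the question as how AMH acts on transcripts while it holds back the first step of follicle growth.

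FGFs are secreted proteins that bind heparan sulfate and tyrosine kinase receptors on the cell surface. Ligand binding pairs the receptors, which phosphorylate the adaptor FRS2 and switch on the RAS-MAPK, PI3K and phospholipase C gamma pathways, while Sprouty proteins and the phosphatase DUSP6 damp the signal. In the ovary FGF2, known from oocytes of resting follicles, and FGF7, known from mesenchymal cells, promote the primordial to primary transition in cultured rat ovaries, the step that AMH inhibits. Splice forms of FGFR1 to FGFR3 differ in which ligands they bind, and an expression probe set need not detect all of them.

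Intensities are given as deposited. Changes are differences of log2(intensity + 16), AMH minus control, each with its standard error (±) from limma fitted to all tested probe sets (n = 2 arrays per group), and adjusted p-values are Benjamini-Hochberg values over all 18625 tested probe sets with a threshold of 0.05. The scale compresses changes of dim probe sets. A probe set was tested if its mean over the 4 arrays reached a level of about 27.8. For comparison, 27 control probe sets for Bacillus subtilis genes, which have no rat counterpart, ran from 0.1 to 19.5 over the 4 arrays. With 2 arrays per group an exact two-sided permutation test cannot go below p = 0.333, so every adjusted p rests on the spread pooled across probe sets, and the number of arrays limits the precision.

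All 4 arrays had the same trimmed mean of 125.03, so the deposited values had been scaled to a common level. For GAPDH, signal at the 3′ end over that at the 5′ end, a ratio that rises as RNA or its labelled copy gets shorter, was 6.56 and 6.37 on the AMH arrays, against 1.17 and 1.27 on the control arrays. For beta-actin the ratio was 10.7 and 14.4 on the AMH arrays, against 3.17 and 4.6 on the control arrays. The chip identifiers carry a run string that is shared within each group and differs between the groups, so this run and the treatment cannot be told apart. The files used here do not place the 19 probe sets along their transcripts, and the part of the 3′/5′ difference in the results below was not tested. All 11 granulosa and all 8 oocyte markers with a listed probe set were bright enough to be tested. So were 10622 of all 14218 genes with a probe set, so these counts alone do not identify the tissue. Being tested rests on the mean over all 4 arrays, to which the control arrays contribute. On the AMH arrays alone the oocyte markers Kit (18.9 and 3.9) and Bmp15 (22.6 and 22.3) read under 27.8. The other oocyte markers read above that level on both AMH arrays. The granulosa marker Cyp19a1 lay near it, with 42.6 and 21.2 in AMH ovaries, against 22.4 and 28.4 in control ovaries.

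Of the 19 probe sets, 7 passed the filter, and they covered 4 of the 10 genes (Fgf9, Fgfr1, Fgfr2 and Fgfr3). With AMH 3 of the 7 were lower, 0 higher and 4 not called. Over all tested probe sets 21.5% were called, 12.8% lower and 8.67% higher. The 3 calls came from 2 genes, since probe sets of a gene share its RNA and are not replicates of each other. The median change of the 7 was -0.32, against 0.025 over all tested probe sets.

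**Figure D1:**
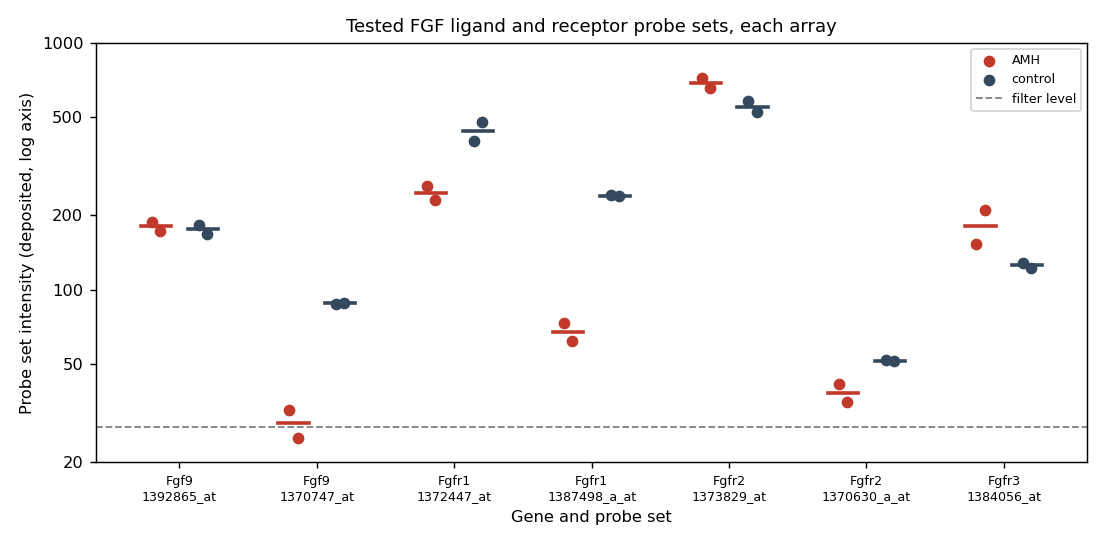
Intensity of the 7 tested probe sets on each array (points, log axis, AMH left of control) with the group means (bars) and the filter level of 27.8 (dashed). Both Fgfr1 probe sets and the dimmer Fgf9 probe set lie lower on both AMH arrays than on either control array, and heights of different probe sets are not comparable as transcript levels.

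Fgfr1, the receptor for many FGFs that is prominent in mesenchymal cells, was lower with AMH at both of its probe sets. The brighter probe set, 1372447_at, read 263.5 and 230.6 in AMH ovaries, against 398.6 and 479.1 in control ovaries. Both AMH arrays lay below both control arrays. The change was -0.79 ± 0.17 (95% interval -1.19 to -0.39, 1.73-fold lower, adjusted p = 0.0162). The other probe set, 1387498_a_at, read 73.3 and 61.8 in AMH ovaries, against 241.1 and 239.9 in control ovaries. Again the groups did not overlap, and the arrays of each group lay close together. Its change was -1.62 ± 0.19 (95% interval -2.06 to -1.19, 3.08-fold lower, adjusted p = 0.0014). This second call held in each of 14 alternatives (adjusted p 0.000339 to 0.00528). The call of 1372447_at was lost without control replicate 1 (-0.92, adjusted p = 0.0551) and without control replicate 2 (-0.66, adjusted p = 0.153). Scaling to the hybridization controls, which moved the median of all tested probe sets to -0.39, made its change -1.25, or -0.86 relative to that median. In whole-organ RNA, fewer cells of a type and less RNA per cell cannot be told apart.

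Markers of the cells in the ovary were read on the same arrays, where 22.9% of all tested genes were called at their brightest tested probe set. Marker genes named here were chosen after their values were seen. Of 11 tested theca and stroma markers 1 was higher with AMH, 2 were lower and 8 were not called (27.3% called). Their summed intensity was 15102 and 19845 in AMH ovaries, against 21984 and 21154 in control ovaries. The members that fell were the collagen genes Col1a1 (336.4 and 639.3 in AMH ovaries, against 4330.2 and 3363.5 in control ovaries) and Col1a2 (1028.9 and 2123.2 in AMH ovaries, against 3744.6 and 3441.6 in control ovaries). These 2 genes weigh heavily in the sums. The mesenchymal receptor gene Pdgfra was the member that rose, with 2128.6 and 1695.2 in AMH ovaries, against 1113.2 and 1260.3 in control ovaries. The 8 not called did not share a direction. Tcf21 read lower on both AMH arrays, and Nr2f2 and Lhcgr read higher on both. Col3a1 (6467 and 7077 in AMH ovaries, against 6469.3 and 6761.3 in control ovaries), Dcn, Lum, Star and Gli1 overlapped. Cyp17a1 and Insl3, which mark theca cells, were below the filter.

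Of 7 tested smooth muscle and pericyte markers 0 were higher and 2 lower (28.6% called), with summed intensities of 438 and 557.6 in AMH ovaries, against 636.2 and 663.2 in control ovaries. These were Acta2 (39.4 and 43.6 in AMH ovaries, against 139.4 and 94.2 in control ovaries) and Des (75.3 and 80.8 in AMH ovaries, against 155.6 and 197.1 in control ovaries). The other 5 were not called and did not share a direction. Myh11 (64.9 and 99.2 in AMH ovaries, against 40.2 and 55.6 in control ovaries) read higher on both AMH arrays. So did Pdgfrb (166.4 and 138.1 in AMH ovaries, against 85 and 124 in control ovaries). Mcam read lower on both, and Tagln and Cnn1 overlapped. Of 8 tested oocyte markers 0 were higher and 5 lower (62.5% called), with sums of 7375 and 7744 in AMH ovaries, against 10450 and 9788 in control ovaries. The 5 were Gdf9, Bmp15, Sohlh1, Kit and Ooep. Among these Kit read 18.9 and 3.9 in AMH ovaries, within the range of the bacterial control probe sets, against 75 and 45 in control ovaries. The 3 zona genes Zp1, Zp2 and Zp3 overlapped between the groups and were not called. Zp2 read 2466.1 and 3388.9 in AMH ovaries, against 2798.6 and 3002.6 in control ovaries. Zp3 read 2721.8 and 1977.8 in AMH ovaries, against 2531.1 and 2133.5 in control ovaries. The haemoglobin gene Hbb, a red blood cell marker, read 89.4 and 55.3 in AMH ovaries, against 1362 and 1166.8 in control ovaries. Of 11 tested granulosa markers 2 were higher, 0 lower and 9 not called (18.2% called). Their sums were 7269 and 5254 in AMH ovaries, against 4099 and 3506 in control ovaries, and Inha, which was not called, made up 1930.6 of the first and 566.2 of the second AMH sum. The part of these values in the fall of Fgfr1 was not tested.

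Fgfr2, whose epithelial splice form is the receptor of FGF7 and FGF10, had 5 probe sets, of which 2 were tested and 0 called. The brightest, 1373829_at, read 720.2 and 656.3 in AMH ovaries, against 578.8 and 522.5 in control ovaries. Both AMH arrays were above both control arrays, but the change of 0.31 ± 0.15 was not called (95% interval -0.034 to 0.66, adjusted p = 0.174). Probe set 1370630_a_at read 41.6 and 35.1 in AMH ovaries, against 51.9 and 51.3 in control ovaries. Here the AMH arrays were the lower ones, and the change of -0.32 ± 0.24 was not called either (95% interval -0.86 to 0.22, adjusted p = 0.368). The sign thus differed between the tested probe sets of Fgfr2. With scaling to the hybridization controls the brightest probe set gave -0.16, which is 0.23 relative to the median of all tested probe sets.

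The remaining Fgfr2 probe sets lay below the filter. Probe set 1371179_a_at read 13.4 and 8.4 in AMH ovaries, against 20.1 and 25.3 in control ovaries, without overlap. Probe set 1388168_a_at read 5.8 and 3 in AMH ovaries, against 5.5 and 20.3 in control ovaries, and 1375129_at read 2 and 12.2 in AMH ovaries, against 2.7 and 1.8 in control ovaries. Both of these overlapped between the groups.

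Fgfr3, a receptor known for restraining bone growth, had 1 probe set above the filter and 1 below it. Probe set 1384056_at read 153.1 and 210.8 in AMH ovaries, against 128.9 and 122.7 in control ovaries. The AMH arrays were higher but far apart, and the change of 0.47 ± 0.21 was not called (95% interval -0.0066 to 0.94, adjusted p = 0.143). Without AMH replicate 1 it passed (0.68, adjusted p = 0.033), and without AMH replicate 2 it was 0.25 (adjusted p = 0.385). The dim probe set, 1369373_at, ran the other way, with 24 and 12.7 in AMH ovaries, against 40 and 30.9 in control ovaries. Fgfr4, known best from liver as a receptor for endocrine FGFs, was dim. Its probe set 1389801_at read 32.1 and 21.7 in AMH ovaries, against 35.7 and 16 in control ovaries, so that the control arrays enclosed the AMH arrays.

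**Figure D2:**
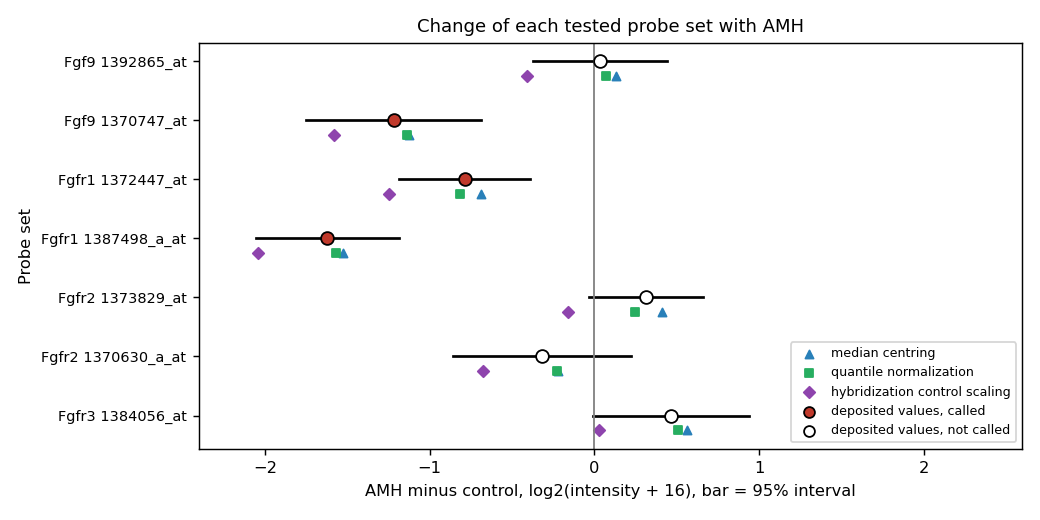
Change of each tested probe set, AMH minus control in log2(intensity + 16), with 95% intervals from the limma fit (circles and bars, filled where called) and the values after 3 other ways of scaling the arrays (small symbols). The Fgfr1 probe sets (-0.79 and -1.62) and the dimmer Fgf9 probe set (-1.22) stay below 0 under each scaling shown.

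Fgf9, a ligand known in mice for driving testis formation in the fetal gonad, was the only ligand of the 6 with a tested probe set. Its brighter probe set, 1392865_at, read 188.6 and 173.1 in AMH ovaries, against 183.6 and 168.8 in control ovaries. The groups overlapped and the change was 0.034 ± 0.18 (95% interval -0.37 to 0.44, adjusted p = 0.913). The dimmer probe set, 1370747_at, read 32.7 and 25 in AMH ovaries, against 87.4 and 88.7 in control ovaries. Both AMH arrays lay below both control arrays, and the change was -1.22 ± 0.23 (95% interval -1.75 to -0.69, 2.33-fold lower, adjusted p = 0.00928). Because the AMH values lie near the filter level, the size depends on the constant added: it was -1.59 with 1 added and -0.71 with 64 added, both called. The call was lost without control replicate 1 (-1.23, adjusted p = 0.0589) and without control replicate 2 (-1.21, adjusted p = 0.0532).

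The probe sets of Fgf9 and of Fgfr1 did not change by the same amount. For every gene with at least 2 tested probe sets, the difference of each dimmer probe set from the brightest was taken on each array and compared between the groups by limma, over 3419 pairs. For Fgf9 this difference was -2.07 and -2.21 in AMH ovaries, against -0.95 and -0.82 in control ovaries (change -1.25 ± 0.23, adjusted p over pairs = 0.00295). For Fgfr1 it was -1.65 and -1.66 in AMH ovaries, against -0.69 and -0.95 in control ovaries (change -0.83 ± 0.23, adjusted p = 0.0198). The Fgfr2 pair gave -3.68 and -3.72 in AMH ovaries, against -3.13 and -3.0 in control ovaries, and its change of -0.63 ± 0.23 did not pass (adjusted p = 0.0522).

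Such disagreement was common on these arrays. A change that differed between probe sets of 1 gene was called in 40.1% of the pairs, and the dimmer probe set had the lower change in 71.5% of them (median -0.39). Where the dimmer probe set was called lower, in 748 pairs, the brighter was called lower as well in 109 (14.6%). Fgfr1 was among these 109 pairs and Fgf9 among the other 639.

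**Figure D3:**
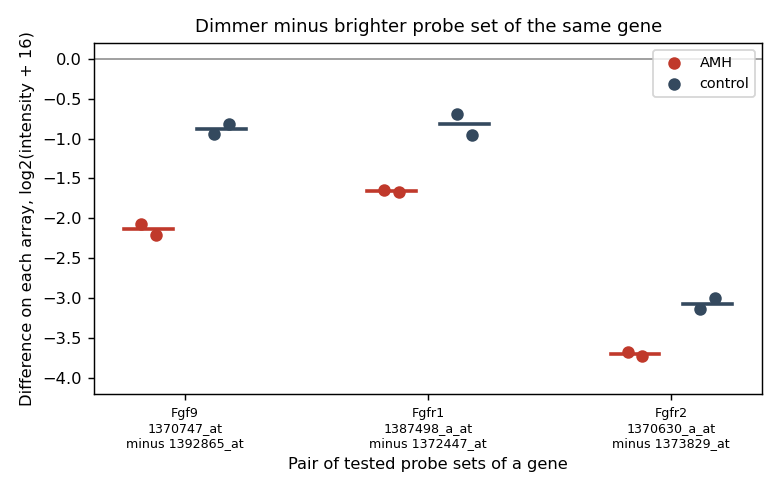
Dimmer minus brighter tested probe set of Fgf9, Fgfr1 and Fgfr2 on each array, in log2(intensity + 16), with AMH arrays left of control arrays and bars at the group means. In all 3 genes the difference is further below 0 on the AMH arrays, by 1.25 for Fgf9, 0.83 for Fgfr1 and 0.63 for Fgfr2.

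The other 5 ligands had no probe set above the filter. Fgf2 read 39.9 and 15.7 in AMH ovaries, against 16.8 and 16.1 in control ovaries. AMH replicate 1 stood alone above the other arrays, and AMH replicate 2 was below both controls. Fgf7, also called keratinocyte growth factor, read 4.2 and 8.4 in AMH ovaries, against 15.2 and 18.6 in control ovaries. Both AMH arrays were lower, but all 4 values lay within the range of the bacterial control probe sets. Fgf10, a mesenchymal ligand of the same receptor form as FGF7, read 4.3 and 17.8 in AMH ovaries, against 14.1 and 15.4 in control ovaries. Fgf18, a ligand known for its roles in cartilage and bone, read 1 and 1.8 in AMH ovaries, against 0.9 and 7.5 in control ovaries. Both overlapped between the groups and stayed within that background range.

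Fgf1, a ligand that can bind all the FGF receptors, was represented by 3 dim probe sets. The brightest, 1393314_at, read 24 and 29 in AMH ovaries, against 29.6 and 27.4 in control ovaries. Probe set 1392820_at read 12.9 and 8.9 in AMH ovaries, against 12 and 3 in control ovaries, and 1387301_at read 23.4 and 2.2 in AMH ovaries, against 3.2 on both control arrays. In none of the 3 were the groups apart.

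Across the 12 dim probe sets of 8 genes the groups did not overlap in 3, all lower with AMH (Fgf7, Fgfr2 1371179_a_at and Fgfr3 1369373_at), and overlapped in 9. Among all 12417 probe sets below the filter the groups stood apart downward in 19.3% and upward in 17.5%. With no filter, limma called 0 of these 12 (0 also at an unadjusted p under 0.05), and the lowest adjusted p was 0.21, for Fgf7. That fit called 9.26% of all probe sets. This share includes the bright ones, so it is not a like reference for the 12, and the share among dim probe sets alone is not given here. No change was thus detected at these 12 probe sets, which does not show that the transcripts stayed level.

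**Figure D4:**
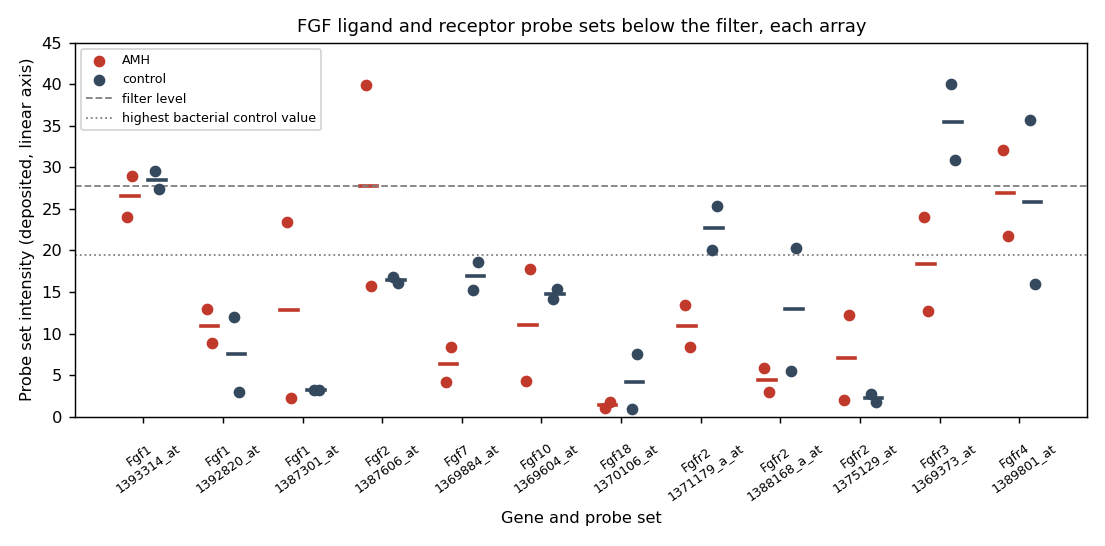
Intensity of the 12 probe sets below the filter on each array (points, linear axis, AMH left of control) with group means (bars), the filter level of 27.8 (dashed) and the highest value of the bacterial control probe sets, 19.5 (dotted). Most points lie under the dotted line, and Fgf2 has 1 AMH array at 39.9 far above its other 3.

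Upstream sequences were looked up for the members with tested probe sets, to show what kind of promoter each has. They come from a RefSeq table of the GRCr8 assembly, which held 9 of the 10 genes and not Fgfr1. Each is the 250 bases before the annotated start, 5′ to 3′ on the gene's strand. Capitals mark, on either strand, the GC box GGGCGG, the TATA box TATAAA, the promoter element CCAAT, the short SMAD box CAGAC and the GC-rich SMAD element GGCGCC. The GC box and the GC-rich element can share bases. AMH signals through SMAD1, SMAD5 and SMAD9, which is why SMAD motifs were included.
Fgf9, chr15:36327108-36327357, plus strand: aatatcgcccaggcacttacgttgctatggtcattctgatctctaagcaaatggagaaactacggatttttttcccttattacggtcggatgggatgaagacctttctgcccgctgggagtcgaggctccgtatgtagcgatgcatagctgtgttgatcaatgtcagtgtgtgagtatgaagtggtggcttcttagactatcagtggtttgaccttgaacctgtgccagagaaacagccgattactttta
Fgfr2, chr1:194280915-194281164, minus strand: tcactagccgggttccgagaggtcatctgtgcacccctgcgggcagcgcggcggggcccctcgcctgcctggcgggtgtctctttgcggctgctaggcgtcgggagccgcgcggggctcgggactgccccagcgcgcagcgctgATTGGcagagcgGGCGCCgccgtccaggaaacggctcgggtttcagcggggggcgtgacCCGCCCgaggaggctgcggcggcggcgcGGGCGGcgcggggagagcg
Fgfr3, chr14:81227210-81227459, minus strand: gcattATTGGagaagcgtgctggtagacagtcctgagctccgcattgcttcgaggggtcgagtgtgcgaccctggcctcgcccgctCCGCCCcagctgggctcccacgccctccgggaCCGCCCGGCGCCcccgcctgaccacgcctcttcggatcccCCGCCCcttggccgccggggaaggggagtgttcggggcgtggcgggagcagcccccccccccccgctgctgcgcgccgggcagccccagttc
The Fgf9 window was 46% G and C and held none of the 5 motifs. Fgfr2 was 76.8% G and C, with 2 GC boxes, 1 CCAAT and 1 GC-rich SMAD element, and Fgfr3 was 74.4%, with 3, 1 and 1. Of all 33469 windows of this length 30.5% held a GC box, 12.9% a TATA box, 34% CCAAT, 42.9% CAGAC and 8.69% GGCGCC. These letters describe the windows only.

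The genes that surround FGF ligands and receptors were counted at the brightest tested probe set of each gene. Of 86 genes in 6 lists 55 were tested, and with AMH 8 were higher, 4 lower and 43 not called (21.8% called). Over all 10622 tested genes 22.9% were called, 11% higher and 11.9% lower. The median change was 0.18, against 0.072 over all tested genes. The direction depends on the scaling: with median centring 13 were higher and 2 lower, and with hybridization control scaling 1 was higher and 9 lower. Without control replicate 1 only 2 passed (Ext2 and Fos), and without control replicate 2 only 6.

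Heparan sulfate genes, which make or carry the chains that hold FGFs at the receptor, held 7 of these 12 calls, with 4 higher, 3 lower and 11 not called of 18 tested. The share called was 38.9%, against 22.9% of all tested genes, and the list as a whole was not tested. Ext1 and Ext2, whose proteins together build the chain, went in opposite directions. Ext2 read 1080.3 and 746.3 in AMH ovaries, against 448.1 and 432.2 in control ovaries (1.00 ± 0.19, adjusted p = 0.00984), and its call was lost with hybridization control scaling (0.53, adjusted p = 0.103). Ext1 read 230.7 and 218.1 in AMH ovaries, against 406.4 and 393.8 in control ovaries (-0.79 ± 0.16, adjusted p = 0.0115). Its call was lost without control replicate 1 (-0.77) and without control replicate 2 (-0.81). A dimmer Ext1 probe set gave 0.38 and was not called.

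Among the core proteins that carry heparan sulfate, the direction also differed between members. The syndecan Sdc4 read 523.8 and 529.7 in AMH ovaries, against 1126.5 and 957.9 in control ovaries (-0.96 ± 0.15, adjusted p = 0.00493). Its call was lost without control replicate 1 (-0.84). Sdc2 was higher (0.58 ± 0.16, adjusted p = 0.0367), with further probe sets at 0.54 (adjusted p = 0.0535) and -0.094, neither called. This call was lost in 7 of 14 alternatives. Of the glypicans, which are tethered to the membrane by a lipid anchor, Gpc4 (0.79 ± 0.19) and Gpc6 (0.84 ± 0.24) were higher and Gpc3 (-0.62 ± 0.17) was lower. Their adjusted p-values were 0.0228 for Gpc4, 0.0426 for Gpc6 and 0.0323 for Gpc3. A dimmer tested Gpc6 probe set gave 0.36 (adjusted p = 0.297) and was not called. The rises of Sdc2, Gpc4 and Gpc6 were lost with hybridization control scaling, and the fall of Gpc3 with median centring (adjusted p = 0.0689). Of 14 alternatives 4 ended the call of Gpc4, and 5 ended that of Gpc6 and likewise that of Gpc3.

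Signal transducers gave 1 rise and 1 fall among 16 tested (12.5% called, against 22.9% of all tested genes). Map2k1, which encodes the kinase MEK1, read 625 and 550.2 in AMH ovaries, against 349.1 and 317.1 in control ovaries (0.79 ± 0.16, adjusted p = 0.0116). Its call was lost with hybridization control scaling (0.32, adjusted p = 0.31). The same held without control replicate 1 (0.85) and without control replicate 2 (0.72). Pik3r1, the regulatory subunit of PI3K, read 67.3 and 9.1 in AMH ovaries, against 160 and 98.6 in control ovaries (-1.64 ± 0.50, adjusted p = 0.0494). Its AMH arrays lay far apart, and without AMH replicate 2 the change was -0.77 (adjusted p = 0.0664). Its call was lost in 8 of 13 alternatives (quantile normalization and median centring among them). The adaptor gene Frs2 was not called (0.25 ± 0.15, adjusted p = 0.264).

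Of 13 tested feedback inhibitors and targets 2 were higher and 0 lower (15.4% called, against 22.9% of all tested genes). Spry2, a Sprouty inhibitor of receptor tyrosine kinase signals, read 113.7 and 167.4 in AMH ovaries, against 38.7 and 67.2 in control ovaries (1.19 ± 0.28, adjusted p = 0.0196). This call was lost without control replicate 1 (0.89, adjusted p = 0.119) and with hybridization control scaling (0.80, adjusted p = 0.075). Fos, an immediate early gene that many stimuli induce, read 411.8 and 325.4 in AMH ovaries, against 87.6 and 153 in control ovaries (1.53 ± 0.25, adjusted p = 0.00566), and passed in each of 14 alternatives.

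The phosphatase gene Dusp6 read 394.6 and 302.7 in AMH ovaries, against 428.4 and 520.3 in control ovaries (-0.43 ± 0.19, adjusted p = 0.137) and was not called, with further probe sets at 0.43 and -0.69. The Sprouty genes Spry1 (0.64 ± 0.22, adjusted p = 0.0681), Spry4 (0.075 ± 0.24) and the transcription factor genes Etv4 (0.0065 ± 0.32) and Etv5 (0.56 ± 0.31) were not called either. Spry1, Dusp6 and Etv5 each passed in 1 or 2 alternatives. Il17rd and the co-receptor gene Klb had no probe set under those symbols in the annotation used here.

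Among co-receptors, decoys and carriers 1 of 5 tested genes was called (20%, against 22.9% of all tested genes). Flrt3, whose membrane protein binds FGF receptors, was higher (0.53 ± 0.16, adjusted p = 0.0499), a call lost in 10 of 14 alternatives. The decoy receptor gene Fgfrl1 read 31.9 and 67.2 in AMH ovaries, against 40.3 and 57.6 in control ovaries, and was not called. Of the 11 further secreted ligands only Fgf8, a ligand of mouse oocytes, was tested (42.7 and 29.3 in AMH ovaries, against 38.3 and 33.6 in control ovaries). Neither tested member of the intracellular FGF homologous factors, Fgf12 (0.28 ± 0.39) and Fgf13 (0.52 ± 0.25), was called.

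**Figure D5:**
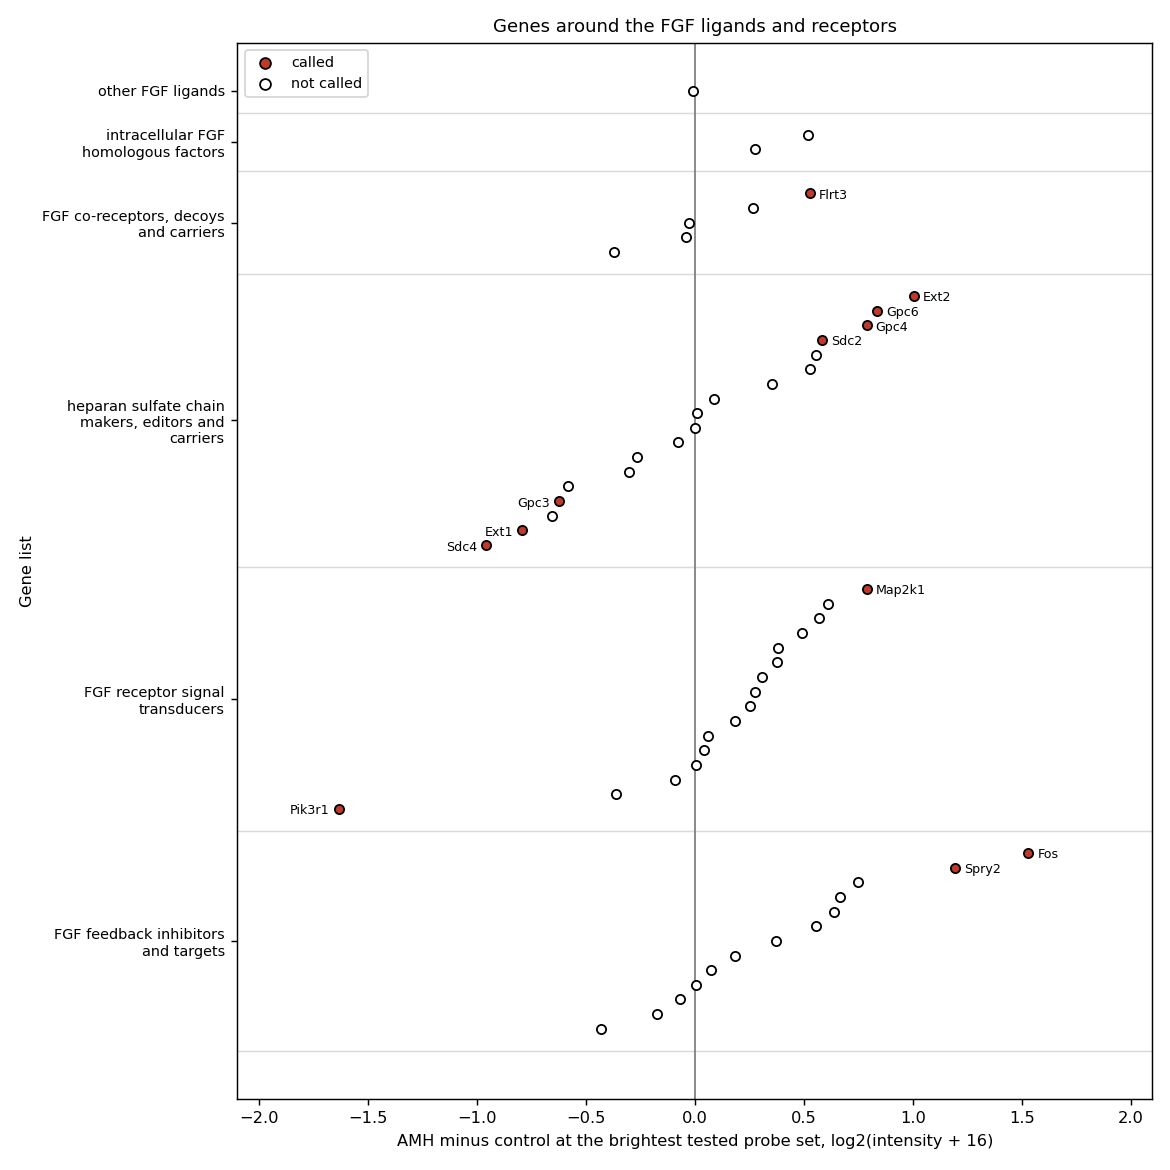
Change with AMH at the brightest tested probe set of each of 55 genes in 6 lists (points, AMH minus control, log2(intensity + 16), filled and named where called at an adjusted p under 0.05). The 12 called genes lie on both sides of 0, from Pik3r1 at -1.64 to Fos at 1.53. The heparan sulfate list holds 7 of them and 18 of the 55 genes (38.9% called, against 22.9% of all tested genes).

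The genes whose values followed the brighter Fgfr1 probe set most closely over the 4 arrays were Ehd4, Cdk5rap2 and Wfdc3. The measure was the Euclidean distance between log2 values centred on each probe set's own mean, which came to 0.029 for Ehd4, 0.030 for Cdk5rap2 and 0.051 for Wfdc3. Ehd4, an endocytic recycling gene, read 154.4 and 135.7 in AMH ovaries, against 235 and 291.9 in control ovaries. With 4 arrays in 2 groups, any gene with a change of like size comes out close.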

How the data were processed

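The authors deposited linear Affymetrix intensities for 31099 probe sets on 4 arrays, hybridised with biotin-labelled RNA per the labels. The summarising software and the array's genome build are not given in the sources used here. Titles gave each sample's group and replicate number. The 10 members, the lists and the rule for named genes were chosen with earlier results of these data known.

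From these log2(intensity + 16) was computed. Left out were 57 array control probe sets and, of the rest, the 40% with the lowest mean. The groups were compared two-sided with lmFit and eBayes (intensity trend) of limma 3.58.1 under R 4.3.3. The fit had 2 residual and 6.33 prior degrees of freedom. Fits for pairs of probe sets of a gene used limma without a trend and were chosen after the values were seen. On simulated arrays the main fit recovered 86 of 86 probe sets changed by 2 on the log2 scale and 83 of 90 changed by 1. Each simulated probe set was given the spread typical of its intensity. Real probe sets of like intensity differ in spread, so these rates do not carry over to probe sets with a larger spread. Read depth does not apply to arrays.

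Names came from the platform annotation: 20832 probe sets have 1 symbol, 436 several and 9831 none. By Entrez identifier 20764 matched a RefSeq gene of GRCr8. Named were all member probe sets, every called gene of the pathway lists and 10 genes fixed by name, with the 3 genes closest to Fgfr1, the member called at its brightest tested probe set. Outside this rule, Fgf8, Fgf12 and Fgf13 were named as the tested genes of short lists. Marker lists covered oocytes, granulosa, theca and stroma, surface epithelium (1 higher and 1 lower of 8), endothelium (0 of 7 called), smooth muscle (0 higher and 2 lower of 7), macrophages (1 and 1 of 9) and red blood cells (0 higher and 1 lower of 2).

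Replicate numbers did not pair the samples: the correlation of same-numbered deviations across probe sets was -0.00082. Alternatives changed the constant, filter, scaling, variance model and block, and left out each array.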

Additional observations from a re-analysis of the deposited data

How the results depend on the processing

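The count of called probe sets (3999, 59.6% of them lower) ran from 1381 to 5131 when 1 array was left out, the count for members (3) from 1 to 4 and that for pathway genes (12) from 2 to 18. In these fits the lone array of a group is assumed to vary like the other group's. The split of all calls depended on scaling, with 47.9% lower after median centring and 97.2% after hybridization control scaling, which moved the median change to 0.12 and -0.39. The pathway count was 7 with no filter and 6 with no intensity trend. With a replicate block 3566 probe sets, 3 member probe sets and 11 pathway genes were called; the block ended the calls of Flrt3 (adjusted p = 0.0805) and Sdc2 (adjusted p = 0.0589) and no other call among the member probe sets and the genes the lists name at their brightest probe set, and since the numbers do not pair the samples this is no sign of a weaker effect. The member count was 3 in each of the other settings except 2 with the lowest 60% left out, where the dimmer Fgf9 probe set was not tested.

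Signs turned only where no call was involved. With hybridization control scaling the values were -0.41 for the brighter Fgf9 probe set, -0.16 for Fgfr2 1373829_at, -0.21 for Frs2, -0.34 for Spry4 and -0.37 for Etv4. Fgfrl1 gave 0.030 with quantile normalization and 0.069 with median centring, and Etv4 gave -0.011 with 64 added. With 1 array left out the ranges were -0.022 to 0.091 for the brighter Fgf9 probe set, -0.43 to 0.37 for Fgfrl1, -0.21 to 0.36 for Spry4 and -0.45 to 0.46 for Etv4. Single values within them were -0.021 for Fgf9 without control replicate 2, 0.17 for Fgfrl1 without control replicate 2 and -0.16 for Etv4 without AMH replicate 1. The cause was not tested.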

Other observations

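Of 28 tested probe sets other than the brightest of each pathway gene 3 were called (10.7%, against 21.5% of all tested probe sets). All 3 belong to signal transducer genes, chosen here after their values were seen, and other settings were not run for them. The adaptor gene Grb2 read 147.2 and 149.1 in AMH ovaries, against 238 and 240.1 in control ovaries (-0.64 ± 0.17, adjusted p = 0.0327), while its brightest probe set was lower by less and not called (-0.36 ± 0.17). Crk, another adaptor gene, read 463.6 and 646.2 in AMH ovaries, against 292.6 and 371.5 in control ovaries (0.70 ± 0.21, adjusted p = 0.0429), with 0.18 ± 0.15 at its brightest probe set. Cbl, a ubiquitin ligase gene, had probe sets of opposite sign: -0.80 ± 0.21 at the dimmer (90.9 and 68.7 in AMH ovaries, against 152.4 and 147.1 in control ovaries, adjusted p = 0.0286) and 0.61 ± 0.20 at the brightest (adjusted p = 0.061).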
